A study of Mus musculus with 20 samples.

Results

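Sarcolipin and the calcium release machinery of skeletal muscle are described here through 9 genes of a count table with 21844 genes. They are the calcium pump gene Atp2a1 and the pump inhibitors Sln (sarcolipin) and Pln (phospholamban), the store and release genes Casq1, Ryr1 and Trdn, and the triad genes Jph1, Jph2 and Stac3. They were chosen by name, and the set was selected on the level of Sln, which is higher in sedentary muscle labelled Bmal1 knockout. All 9 were among the 14359 genes tested, and Sln passed the level filter in the vehicle groups alone.

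RNA was sequenced from mouse hindlimb muscle in 20 libraries, 5 in each of 4 groups. All mice were labelled Cre+:iMSBmal1 fl/fl, a floxed Bmal1 gene with an inducible, muscle-specific Cre recombinase, so the controls carry the same alleles. Vehicle mice and iMSBmal1KO mice (knockout below) either had no exercise or had 6 weeks of daily treadmill training, which gives the groups vehicle sedentary, knockout sedentary, vehicle trained and knockout trained. The age of the mice and the Cre driver are not given in the sources used here. The labels name both the gastrocnemius and the tibialis anterior as the tissue, and they put collection at 48 hours while the series design puts it at 47 hours after the last bout.

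In muscle, an action potential is sensed in the transverse tubule by a voltage-gated channel, which opens the ryanodine receptor of the facing sarcoplasmic reticulum at a junction called the triad. Calcium leaves the store, where calsequestrin holds it, and the SERCA pump returns it at the cost of ATP. Sarcolipin and phospholamban are small membrane proteins that bind the pump and lower its activity. In fast muscle of adult mice both are scarce, while SERCA1 and the ryanodine receptor are abundant.

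Library totals lay between 10610333 and 19153527 estimated counts. The labels do not say whether the libraries of a group come from separate animals, so p-values measure only the spread between these samples. Between knockout trained libraries 1 and 4, the noise at high counts was 1.25 times that at low counts. Between knockout trained libraries 3 and 5 it was 0.873 times. In all other pairs of libraries this ratio was at least 2.31. Each of these 2 pairs was therefore counted as 1 sample, which leaves n = 3 in that group and 18 samples in all. Whether the libraries of a pair come from the same animal was not tested. Vehicle trained library 2 stood apart. It had 3744 of 14359 genes over 2-fold from the mean of the rest of its group, against 30 to 584 genes in the other 17 samples. Results that rest on it are given with and without it. The targeted gene Arntl (Bmal1) went against the labels. It was at 5.68 to 7.93 CPM (a gene's counts over its library total, rescaled) in vehicle sedentary libraries and at 10.96 to 18.9 CPM in libraries labelled knockout sedentary. In trained muscle it was at 6.32 to 6.68 CPM in 4 vehicle libraries, at 132.3 CPM in library 2, and at 8.04 to 16.1 CPM in samples labelled knockout. These counts sum reads over the whole gene, so the deleted part was not looked at on its own, and every direction below is drawn from the labels. Fast fibre genes dominated the tissue: 8 of them summed to 36895 to 62347 CPM, and 8 slow fibre genes to 376 to 1346 CPM.

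Of the 9 genes, 5 have a promoter in the RefSeq table for build GRCm38.p6, in 6 entries. Sln is not among them. BMAL1 and its partner CLOCK bind the E-box CACGTG, a form of the wider motif CANNTG. The windows searched run from 250 to 51 bases before the start, on both strands, and a CACGTG match is also a CANNTG match. CACGTG was in 0 of the 6 member windows and in 4.34% of all 32851 windows. CANNTG was in 2 of the 6 and in 59.0% of all windows. The windows that hold a match are shown, Pln since it is the member with a called change below and Casq1 beside it, 5′ to 3′ along the gene's strand, with each CANNTG match in capitals. The Pln window is chr10:53337436-53337635 (+ strand, 30.0% GC) and the Casq1 window is chr1:172219946-172220145 (- strand, 60.0% GC).
Pln: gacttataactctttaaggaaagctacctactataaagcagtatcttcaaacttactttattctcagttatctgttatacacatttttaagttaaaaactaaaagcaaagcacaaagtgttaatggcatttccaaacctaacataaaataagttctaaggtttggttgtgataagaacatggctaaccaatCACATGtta
Casq1: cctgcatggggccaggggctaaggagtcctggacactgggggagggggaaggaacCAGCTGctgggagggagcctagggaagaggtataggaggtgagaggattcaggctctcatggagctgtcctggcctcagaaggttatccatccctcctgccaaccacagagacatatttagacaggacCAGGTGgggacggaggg
The Pln window holds 1 match and the Casq1 window 2. A match is a run of letters and not a binding site, and its absence says only that these letters are not in the window.

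Set side by side per length, the 9 genes covered more than 3 orders of magnitude. Lengths are those of the merged exons in GENCODE M21 (GRCm38). In vehicle sedentary muscle, Atp2a1, which encodes the fast-fibre pump SERCA1, was at 4688 ± 326 CPM per kilobase (SD, n = 5). Casq1, the calcium-binding protein of the fast-fibre store, followed at 839 ± 62.8 CPM per kilobase (SD, n = 5). Both stood clear of every other member. A middle group of 5 genes came next. Jph2 was at 145 ± 18.1 CPM per kilobase (SD, n = 5) and Trdn at 117 ± 10.7 CPM per kilobase (SD, n = 5). Stac3 at 88.3 ± 8.60, Jph1 at 85.8 ± 5.26 and Ryr1 at 83.8 ± 9.76 CPM per kilobase (SD, n = 5 each) did not differ beyond their spread. The order inside the middle group depends on the length used: with the longest transcript, Trdn was at 243 and Ryr1 at 119 CPM per kilobase, Stac3 was at 125, and Jph2 was at 146.

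The inhibitors stood lowest. In vehicle sedentary muscle Pln was at 2.67 ± 0.305 CPM per kilobase and Sln at 2.32 ± 0.598 CPM per kilobase (SD, n = 5 each), and these 2 levels did not differ beyond their spread. In knockout sedentary muscle Sln was at 23.7 ± 17.2 CPM per kilobase and Pln at 6.69 ± 1.98 CPM per kilobase (SD, n = 5 each), and every Sln value was above every Pln value. In knockout trained muscle Sln was at 13.9 ± 8.76 and Pln at 5.28 ± 2.99 CPM per kilobase (SD, n = 3 each), with the lowest Sln sample at 8.70 and the highest Pln sample at 8.49 CPM per kilobase. With the longest transcript as the length, the highest Pln sample was at 10.04 CPM per kilobase and these values overlapped. In vehicle trained muscle the mean of Sln was also above that of Pln, at 4.27 ± 3.26 and 1.33 ± 0.683 CPM per kilobase (SD, n = 5 each), but the values overlapped. Atp2a1 and Casq1 had the highest and second highest means in all 4 groups.

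**Figure D1:**
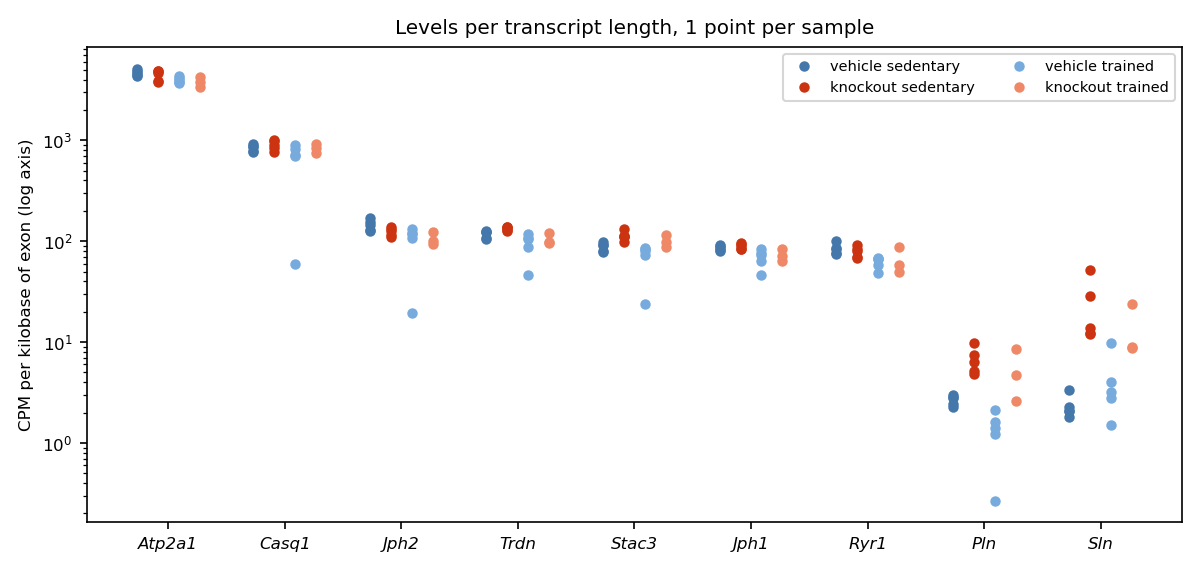
CPM per kilobase of merged exon for the 9 genes on a log axis, 1 point per sample, coloured by group. Atp2a1 and Casq1 stand at the top in every group, and with these lengths the points of Sln lie above those of Pln in both groups labelled knockout. The single low points of Casq1, Jph2 and Stac3 are vehicle trained library 2.

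Relative to the pump message the inhibitors were rare. The ratio of length-scaled levels gave 0.500 ± 0.157 Sln per 1000 Atp2a1 in vehicle sedentary muscle (SD, n = 5) and 5.38 ± 3.58 in knockout sedentary muscle (SD, n = 5). It was 1.09 ± 0.876 in vehicle trained (SD, n = 5) and 3.54 ± 1.89 in knockout trained muscle (SD, n = 3). The highest sample, knockout sedentary library 2, reached 10.7 Sln per 1000 Atp2a1. For Pln the ratios per 1000 Atp2a1 were 0.568 ± 0.0376, 1.53 ± 0.412, 0.335 ± 0.183 and 1.34 ± 0.636 in the same order of groups (SD, n = 5, 5, 5 and 3). The vehicle trained means rest in part on vehicle trained library 2, the extreme of its group in both ratios. It was at 2.59 for Sln, against 0.381 to 1.08 in the other vehicle trained libraries. For Pln it was at 0.0701, against 0.285 to 0.576 in the others.

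In sedentary muscle labelled knockout, the 2 pump inhibitors were higher in every library than in any vehicle library, while the pump and the 6 release and triad genes overlapped between the groups. The members were chosen on this comparison, so its values are a description and carry no test. Of all 14359 genes, 9.40% did not overlap between these groups, in either direction. Leaving out knockout sedentary library 3 raised the members that did not overlap from 2 to 4, with Trdn and Stac3 added, while the share of all genes rose to 11.7%.

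Sln was at 2.40, 2.99, 2.71, 4.41 and 2.75 CPM in vehicle sedentary libraries 1 to 5, which is 31 to 74 estimated counts a library. In knockout sedentary libraries 1 to 5 it was at 38.1, 68.2, 18.1, 15.9 and 16.1 CPM, or 183 to 1026 estimated counts. Libraries 1 and 2 were the highest, and the other 3 lay close together at more than 3 times the highest vehicle value. The fitted log2 difference was 3.29 (SE 0.510), a 9.77-fold higher level. Sln exons overlap no other gene of the annotation.

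Pln was at 7.95, 7.71, 6.26, 6.67 and 8.18 CPM in vehicle sedentary libraries 1 to 5. The knockout sedentary libraries had 14.1, 13.4, 17.5, 26.8 and 20.6 CPM. The groups did not overlap, and the fitted log2 difference was 1.27 (SE 0.347), a 2.41-fold higher level. Libraries 1 and 2, the highest for Sln, were the lowest of their group for Pln. Pln exons overlap those of Cep85l and Gm47644 on the other strand, and the strandedness of the counts is not given in the sources used here, so reads of these genes could not be told apart from those of Pln.

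The pump itself was at similar levels. Atp2a1 ranged over 15042 to 17857 CPM in vehicle sedentary and 13128 to 16793 CPM in knockout sedentary libraries, with a fitted log2 difference of -0.15 (SE 0.122). The release channel gene Ryr1 ranged over 1642 to 2178 CPM in vehicle and 1487 to 1982 CPM in knockout sedentary libraries, a log2 difference of -0.15 (SE 0.147). Casq1 differed by 0.04 on the log2 scale (SE 0.390) and Trdn, which anchors calsequestrin to the release channel, by 0.13 (SE 0.174). Among the triad genes, Jph1, which ties the reticulum to the tubule, differed by -0.00 on the log2 scale (SE 0.125). Jph2, the junctophilin shared with heart, differed by -0.28 (SE 0.304) and Stac3, the adaptor of the voltage sensor, by 0.31 (SE 0.225). Without vehicle trained library 2 in the fit, the spread shared by all groups was smaller and the SE fell to 0.108 for Casq1, 0.111 for Jph2 and 0.103 for Stac3, with log2 differences of 0.05, -0.27 and 0.31. Exons of Atp2a1, Casq1, Ryr1 and Jph1 also overlap a gene on the other strand.

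**Figure D2:**
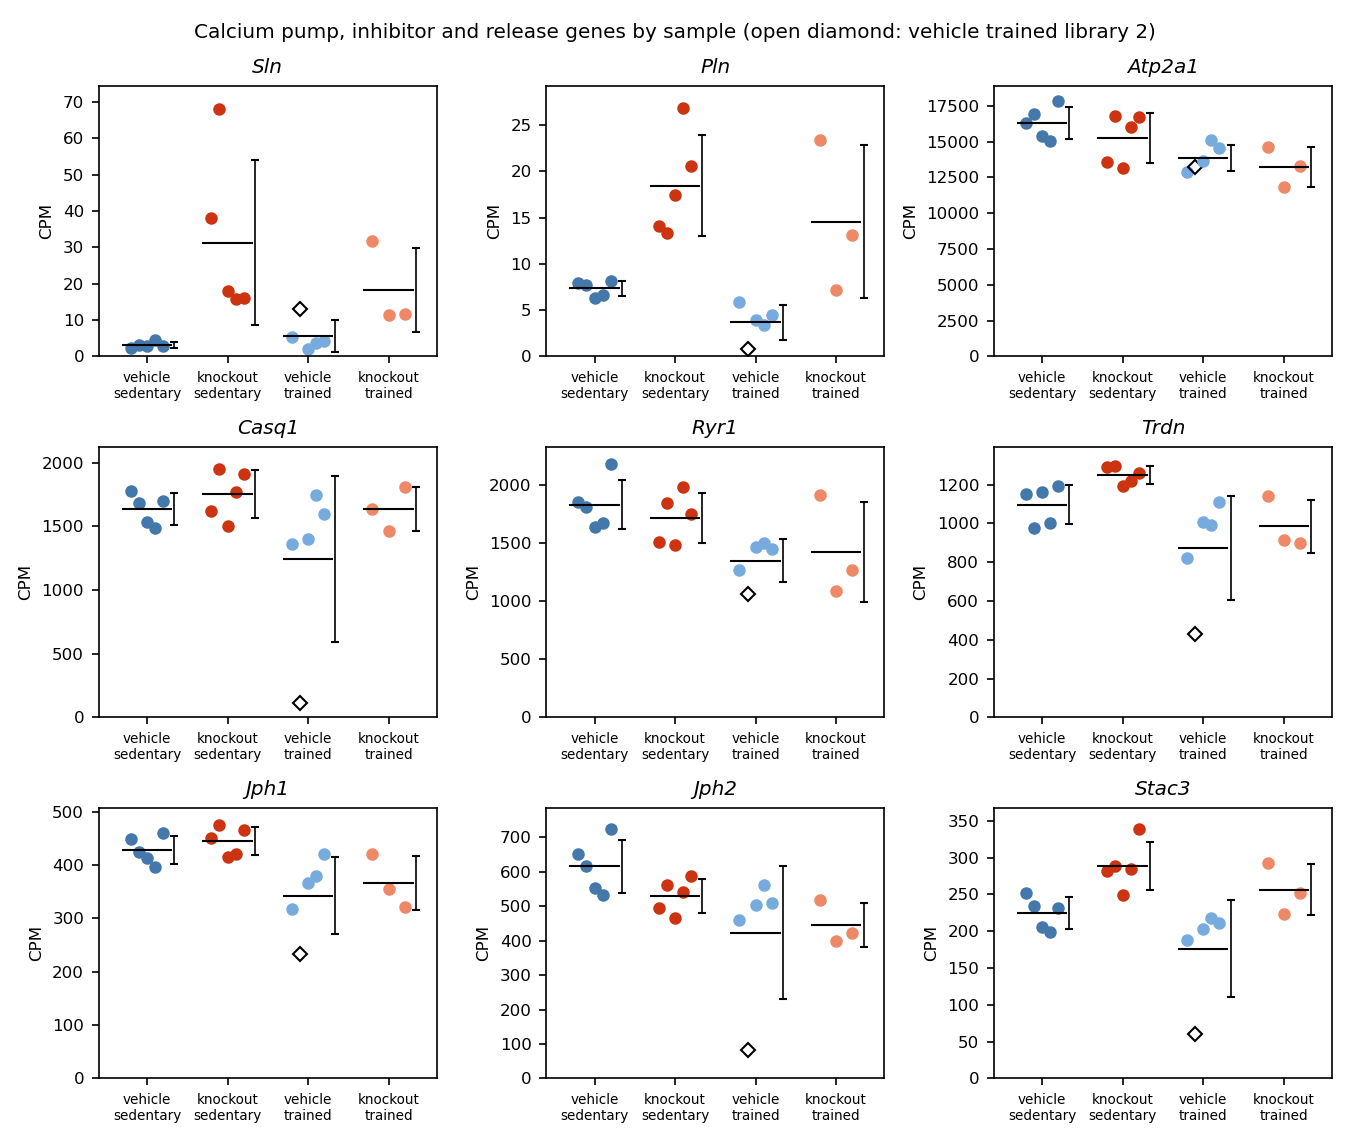
CPM of each of the 9 genes, 1 point per sample in the 4 groups, with horizontal lines for group means and bars for 1 SD (n = 5, 5, 5 and 3). Within sedentary and within trained muscle, Sln and Pln separate the groups labelled knockout from the vehicle groups, apart from vehicle trained library 2 (open diamond) for Sln. That library is far below its group for Casq1, Jph2 and Stac3.

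Trained muscle gives the same genotype comparison in samples that the choice by the level of Sln did not use. It is not a fresh test, since earlier results of these data were known and the fit shares its spread with the sedentary samples. Pln was higher in samples labelled knockout and passed the test, the only member to do so with all samples. Sln passed it once vehicle trained library 2 was left out. None of the 9 genes was called lower. With all samples, 1 of 9 members was called, against 3.29% of all genes (473 of 14359, 286 higher and 187 lower, adjusted p under 0.05 in edgeR's quasi-likelihood test with Benjamini-Hochberg adjustment). Without vehicle trained library 2, 2 of 9 were called, against 8.66% of all genes. Fitted on the 2 trained groups alone, 0 of 9 were called, where 20 of 14359 genes were called. Pln and Stac3 did not overlap between the groups with all samples, where 7.95% of all genes did not overlap. Without that library Sln, Pln and Stac3 did not overlap, all 3 higher, where 14.5% of all genes did not overlap. The median log2 change of the 9 genes was 0.22 with all samples and 0.06 without that library, beside -0.03 and 0.00 over all genes tested.

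For Pln, vehicle trained libraries 1 to 5 had 5.89, 0.737, 3.89, 3.41 and 4.43 CPM. Knockout trained muscle had 23.4 CPM as the mean of libraries 1 and 4, 7.12 CPM in library 2 and 13.2 CPM as the mean of libraries 3 and 5. All 3 knockout samples were above all 5 vehicle samples, whether or not library 2 was counted. The group means were 3.67 ± 1.88 CPM (SD, n = 5) and 14.6 ± 8.25 CPM (SD, n = 3). The log2 difference was 2.03 (SE 0.395), 4.07-fold, with adjusted p = 0.00708 in edgeR's quasi-likelihood test. It was 1.79 (SE 0.301) with adjusted p = 0.000814 in edgeR without vehicle trained library 2. Without the sample made of knockout trained libraries 1 and 4 it was 1.60 with adjusted p = 0.0516 in edgeR. Fitted on the 2 trained groups alone it was 2.02 with adjusted p = 0.276 in edgeR. Over the alternatives and the main fit, the log2 difference ranged from 1.60 to 2.34 and the adjusted p from 6.86e-07 to 0.276.

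For Sln, vehicle trained libraries 1 to 5 had 5.25, 13.0, 1.97, 3.64 and 4.23 CPM. Knockout trained muscle had 31.6 CPM as the mean of libraries 1 and 4, 11.5 CPM in library 2 and 11.8 CPM as the mean of libraries 3 and 5. Only vehicle trained library 2 reached into the knockout range. The log2 difference was 1.70 (SE 0.526, 95% interval 0.59 to 2.80), which did not pass the test (adjusted p = 0.092, edgeR). Without vehicle trained library 2 the vehicle mean was 3.77 ± 1.37 CPM (SD, n = 4), and Sln rose by 2.33 on the log2 scale (SE 0.470), 5.03-fold, with adjusted p = 0.00377 in edgeR. Over the alternatives the adjusted p ranged from 0.000239 to 0.446 and the log2 difference from 1.15 to 2.38, always with the knockout samples higher. The lowest difference came from leaving out knockout trained libraries 1 and 4, the highest Sln sample of the group.

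Stac3 was the third gene whose trained groups did not overlap. It was at 188, 60.2, 203, 218 and 211 CPM in vehicle trained libraries 1 to 5 and at 293, 224 and 252 CPM in the 3 knockout trained samples. The log2 difference was 0.59 (SE 0.257, adjusted p = 0.242, edgeR) with all samples and 0.38 (SE 0.124, adjusted p = 0.0625, edgeR) without vehicle trained library 2, so it was not called in either. Over the alternatives its adjusted p ranged from 0.0179 to 0.712.

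The pump, the store, the release channel and the junctophilins gave no called difference between the trained groups. Without vehicle trained library 2, the log2 difference of Atp2a1 was -0.02 (95% interval -0.30 to 0.26) and that of Ryr1 was 0.05 (95% interval -0.29 to 0.39). For Casq1 it was 0.17 (95% interval -0.10 to 0.45) and for Trdn 0.06 (95% interval -0.20 to 0.32). For Jph1 it was 0.04 (95% interval -0.20 to 0.28) and for Jph2 -0.13 (95% interval -0.41 to 0.15). All 6 intervals lie within 0.45 of 0 on the log2 scale. With all samples the intervals were wider, from -0.47 to 1.40 for Casq1 and from -0.61 to 0.86 for Jph2, whose fitted value was then 0.13. Casq1 was at 115 CPM in vehicle trained library 2 and at 1365 to 1746 CPM in the other 4 vehicle trained libraries.

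**Figure D3:**
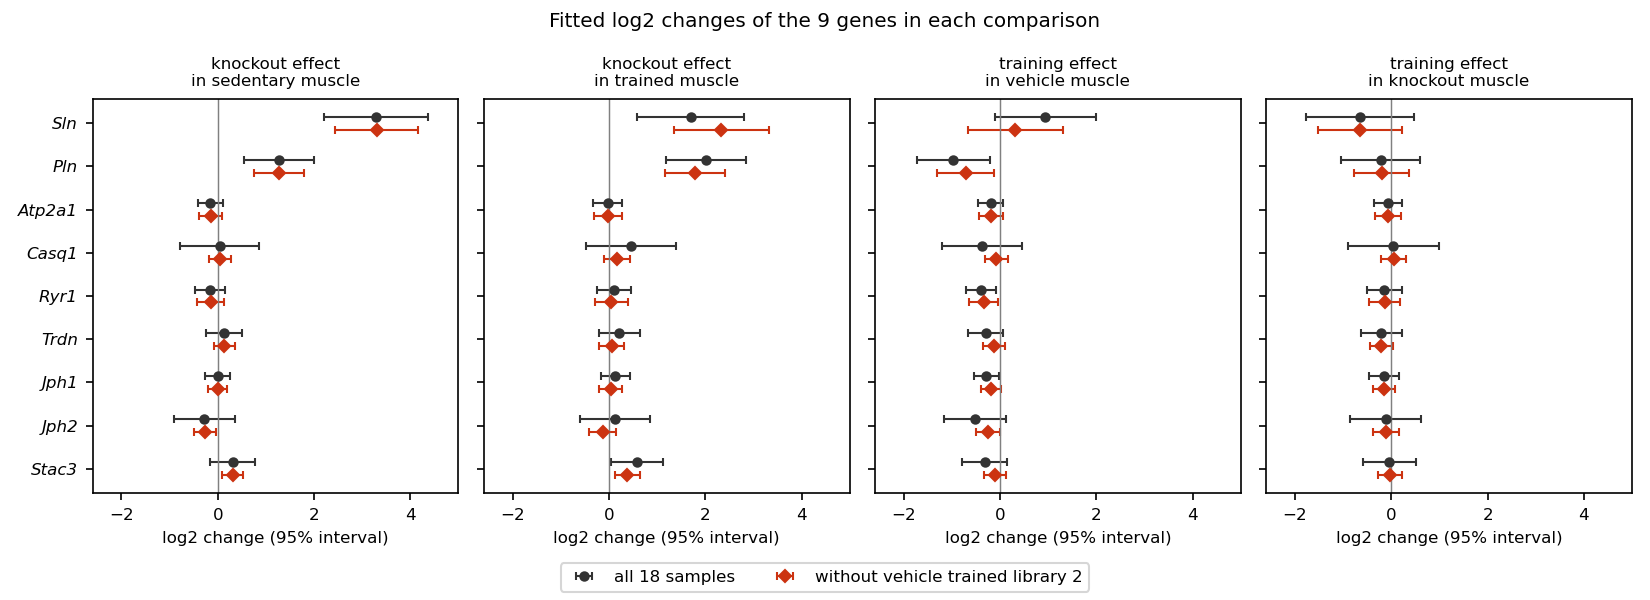
Fitted log2 changes of the 9 genes in the 4 comparisons with 95% intervals, from all 18 samples (circles) and without vehicle trained library 2 (diamonds). The 2 inhibitors lie right of 0 in both knockout comparisons. The first panel is a description, since the genes were chosen on that comparison.

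Training was compared within each genotype label. In vehicle muscle 8 of the 9 fitted changes were below 0, with a median of -0.32 on the log2 scale beside 0.03 over all genes tested. Without vehicle trained library 2 these medians were -0.18 and -0.003. None of the 9 genes passed the test. Nor did any other gene pass, so 0% of all genes were called, with or without vehicle trained library 2, although 2186 genes had an unadjusted p under 0.05 in edgeR, and DESeq2 called 15. Of the members, 0 were called by edgeR or by DESeq2, with 3 and 4 at an unadjusted p under 0.05. Pln and Ryr1 did not overlap between the groups, both lower in trained muscle, where 2.98% of all genes did not overlap (4.91% without vehicle trained library 2, with the same 2 members). The vehicle sedentary samples also entered the comparison on which the genes were chosen.

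Pln was at 6.26 to 8.18 CPM in vehicle sedentary and at 0.737 to 5.89 CPM in vehicle trained libraries. Its log2 difference was -0.98 (SE 0.362, adjusted p = 0.274, edgeR), and -0.72 (SE 0.281, adjusted p = 0.358, edgeR) without vehicle trained library 2. Ryr1 was at 1642 to 2178 CPM in vehicle sedentary and at 1063 to 1500 CPM in vehicle trained libraries. Its log2 difference was -0.40 (SE 0.147, adjusted p = 0.274, edgeR). The groups of both genes were separate, and neither gene passed the test. Sln, in contrast, had a log2 difference of 0.94 (SE 0.502, adjusted p = 0.366, edgeR) that went to 0.32 (SE 0.474, adjusted p = 0.78, edgeR) without vehicle trained library 2. The remaining 6 fitted changes lay between -0.52 for Jph2 and -0.19 for Atp2a1, and between -0.25 and -0.08 without that library, where Jph2 and Casq1 set the ends.

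In muscle labelled knockout, training left 0 of 9 members called by edgeR and 0 by DESeq2, with 0 at an unadjusted p under 0.05 in either tool. Among all genes 0% were called in edgeR with all samples (1394 at an unadjusted p under 0.05, and 198 called by DESeq2) and 0.843% without vehicle trained library 2. That library is in neither group and enters only through the spread and the scaling shared by all samples. Sln had a log2 difference of -0.65 (SE 0.531, 95% interval -1.77 to 0.46) and Pln one of -0.22 (SE 0.390, 95% interval -1.04 to 0.60). Trdn was the only member whose groups did not overlap, where 11.9% of all genes did not overlap. Trdn was at 1192 to 1295 CPM in knockout sedentary and 900 to 1140 CPM in knockout trained samples. Its log2 difference was -0.21 (SE 0.202, adjusted p = 0.87, edgeR). Again 8 of 9 fitted changes were below 0, the exception being Casq1 at 0.04 (SE 0.450). The median of the 9 was -0.14 on the log2 scale, beside -0.02 over all genes tested. This comparison shares the knockout sedentary samples with the one that chose the genes, and the difference between the training effects in the 2 genotype labels was therefore not tested.

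The other genes of calcium handling came from a list of 68, of which 67 were in the table and 59 were tested. In trained muscle 6 of the 59 rose in samples labelled knockout and 0 fell (edgeR, adjusted p under 0.05), where 3.29% of all genes were called. Without vehicle trained library 2, 12 rose and 4 fell, where 8.66% of all genes were called. Fitted on the 2 trained groups alone, 0 of the 59 were called in edgeR, where 20 of all 14359 genes were called. None of the calls on this list holds in that fit. The median log2 change of the 59 was 0.18 with all samples and 0.13 without that library. Leaving out knockout trained libraries 3 and 5 left 3 of the 59 called, where 177 of all 14359 genes were called.

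Among the SERCA pumps and their micropeptides, 1 of 4 tested genes rose. This was Mrln, which encodes myoregulin, another small inhibitor of the pump in skeletal muscle. It was at 89.3, 44.9, 41.4, 53.1 and 70.1 CPM in vehicle trained libraries 1 to 5 and at 117, 254 and 208 CPM in the knockout trained samples. No value overlapped, and the log2 difference was 1.76 (SE 0.236, adjusted p = 0.000337, edgeR). In sedentary muscle Mrln was at 44.8 ± 7.73 CPM (SD, n = 5) in vehicle and 146 ± 16.1 CPM (SD, n = 5) in knockout libraries, given without a test. Atp2a2, the pump of slow fibres and heart, did not pass in trained muscle (log2 difference 0.41, SE 0.279, adjusted p = 0.468, edgeR).

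Of the 5 store proteins, 1 rose. Casq2, the calsequestrin of heart and slow fibres, was at 32.9, 7.27, 26.8, 13.3 and 21.0 CPM in vehicle trained libraries 1 to 5 and at 79.0, 62.3 and 65.6 CPM in the knockout trained samples. Every knockout sample was above every vehicle library, with a log2 difference of 1.81 (SE 0.303, adjusted p = 0.00222, edgeR). In sedentary muscle the means of Casq2 were 33.2 ± 3.12 CPM and 94.3 ± 17.8 CPM (SD, n = 5 each). Casq1, its fast-fibre counterpart, is described above and gave no called difference.

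Of the 9 release channels and partners tested, 0 were called with all samples, and 1 rose and 2 fell without vehicle trained library 2. Itpr1, the inositol trisphosphate receptor, was at 79.2, 12.2, 62.7, 85.2 and 91.6 CPM in vehicle trained libraries 1 to 5. The knockout trained samples had 27.1, 33.8 and 27.1 CPM. Only library 2 lay below them, and the log2 difference went from -1.11 (SE 0.366, adjusted p = 0.116, edgeR) with all samples to -1.37 (SE 0.122, adjusted p = 1.25e-06, edgeR) without it. In sedentary muscle Itpr1 was at 65.0 ± 7.03 CPM and 27.4 ± 1.93 CPM (SD, n = 5 each). Tmem38b, which encodes a cation channel of the reticulum, was at 94.6 to 105 CPM in 4 vehicle trained libraries, at 192.5 CPM in library 2 and at 69.0 to 80.1 CPM in knockout trained samples. Its log2 difference was -0.61 (SE 0.201, adjusted p = 0.113, edgeR), and -0.33 (SE 0.0849, adjusted p = 0.0213, edgeR) without library 2. Ryr3, the minor ryanodine receptor of adult muscle, did not pass (log2 difference 0.97, SE 0.437, adjusted p = 0.262, edgeR).

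In the voltage sensor, tubule and triad list 1 of 10 genes rose with all samples and 3 without vehicle trained library 2. Cacna1s, the pore of the voltage sensor, was not called (log2 difference 0.44, SE 0.146, adjusted p = 0.113, edgeR), while its subunit gene Cacnb1 rose by 0.45 (SE 0.104, adjusted p = 0.0204, edgeR). Cav3, the muscle caveolin, differed by 0.62 (SE 0.181, adjusted p = 0.0687, edgeR) and by 0.48 (SE 0.108, adjusted p = 0.00918, edgeR) without library 2. Of 9 entry, buffering and extrusion genes, 1 rose. Slc8a1, the sodium-calcium exchanger, was at 13.2 to 24.2 CPM in vehicle trained libraries and at 42.9, 27.9 and 30.5 CPM in knockout trained samples. Its groups did not overlap, and the log2 difference was 0.99 (SE 0.198, adjusted p = 0.00822, edgeR). In sedentary muscle Slc8a1 was at 13.2 to 21.1 CPM in vehicle and 42.6 to 59.8 CPM in knockout libraries. Pvalb, the cytosolic calcium buffer of fast fibres, was not called (log2 difference 0.65, SE 0.262, adjusted p = 0.206, edgeR). The list of mitochondrial calcium uptake genes is not described here. Of 16 genes of calcineurin and CaM kinase signalling, 0 were called with all samples, and 1 rose and 1 fell without library 2.

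**Figure D4:**
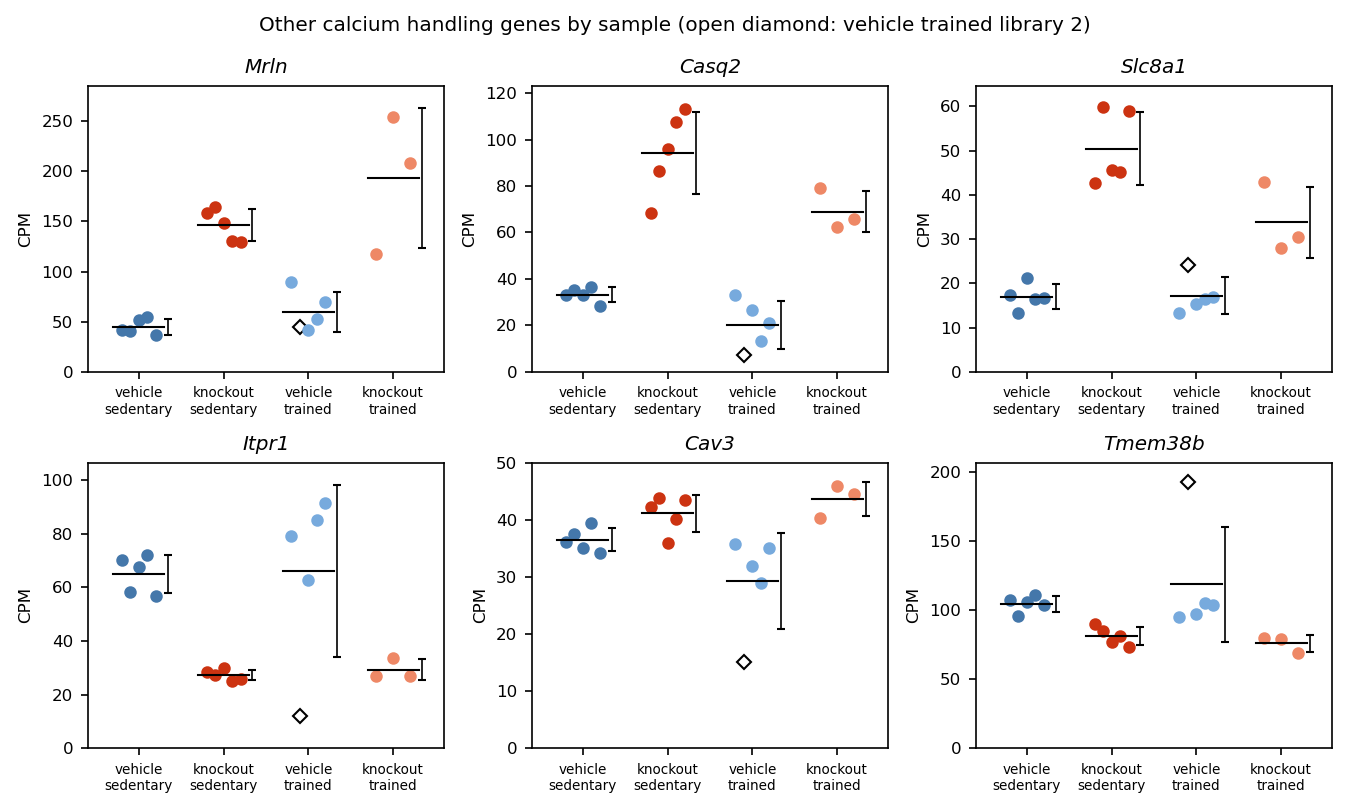
CPM of 6 other calcium handling genes, 1 point per sample, with group means (lines) and 1 SD (bars; n = 5, 5, 5 and 3). Mrln, Casq2 and Slc8a1 are higher, and Itpr1 and Tmem38b lower, in both groups labelled knockout than in the vehicle group of the same training label, apart from vehicle trained library 2 (open diamond) for Itpr1.

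Training gave no called gene on this list with edgeR. In vehicle muscle 0 of the 59 were called by edgeR and 0 by DESeq2, with 13 and 14 at an unadjusted p under 0.05. In muscle labelled knockout edgeR called 0 and DESeq2 called 2, with 9 at an unadjusted p under 0.05 in each. Over all genes DESeq2 called 198 of the 6656 that it gave an adjusted p. The largest fitted fall in vehicle muscle belonged to Atp2a2, at -0.77 on the log2 scale (SE 0.246, adjusted p = 0.272, edgeR). Leaving out knockout trained libraries 1 and 4 gave 5 called genes of this list in the knockout comparison, where 397 of all 14359 genes were called.

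Fibre and cell type markers were set beside the inhibitors. In bulk muscle, fewer cells of a type and less RNA per cell cannot be told apart. The 8 slow fibre genes summed to 789 to 1346 CPM in vehicle sedentary and 518 to 1207 CPM in knockout sedentary libraries, so these groups overlapped. Knockout sedentary libraries 1 and 2, the highest for Sln, had the lowest slow sums of their group, 518 and 561 CPM. Knockout sedentary library 4, the highest for Pln, had the highest slow sum, 1207 CPM. In trained muscle the slow sums were 376 to 1262 CPM in vehicle and 863 to 1236 CPM in knockout samples. Vehicle trained library 1 was at 1262 CPM, and the other vehicle trained libraries were at or below 639 CPM. Myh7, the defining slow myosin, was at 78.5 to 231 CPM in vehicle trained and 244 to 255 CPM in knockout trained samples, without overlap. The sums of the 8 fast fibre genes overlapped in both comparisons. Of the 8, Mylpf, a fast myosin light chain, did not overlap in sedentary muscle, where 9.40% of all genes did not overlap. It was at 3788 to 5339 CPM in vehicle and 5455 to 6973 CPM in knockout libraries. Myh2, on the same list, lay the other way with overlap, at 1694 to 2598 CPM in vehicle and 924 to 1987 CPM in knockout libraries. The part of slow fibre content in the levels of Pln, Casq2 and Sln was not tested.

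The summed level of 10 genes of denervated or regenerating fibres was higher in samples labelled knockout, apart from vehicle trained library 2. The genes summed to 54.4 to 72.0 CPM in vehicle sedentary and 102 to 136 CPM in knockout sedentary libraries. In trained muscle they summed to 59.6 to 66.6 CPM in 4 vehicle libraries, to 487 CPM in vehicle trained library 2 and to 95.5 to 109 CPM in knockout samples. Chrna1, the acetylcholine receptor subunit, was at 14.3 ± 2.20 CPM and 35.7 ± 6.78 CPM in vehicle and knockout sedentary muscle (SD, n = 5 each), and at 10.5 ± 1.66 (SD, n = 5) and 37.9 ± 3.42 CPM (SD, n = 3) in trained muscle. Gadd45a was at 27.0 ± 3.31 and 49.2 ± 7.92 CPM in sedentary muscle (SD, n = 5 each). Chrna1 and Gadd45a made up most of the difference between the sedentary sums. Chrna1, Gadd45a and Mymk did not overlap between the sedentary groups, where 9.40% of all genes did not. Mymk was low, at 0 to 0.0665 CPM in vehicle and 0.264 to 0.797 CPM in knockout sedentary libraries, and its trained groups overlapped. Myog, Runx1, Ncam1, Myh3 and Myh8 each overlapped between the sedentary groups. Ncam1, for one, was at 4.09 to 7.78 CPM in vehicle and 4.88 to 8.17 CPM in knockout libraries. The fetal receptor subunit Chrng, a defining marker of denervated fibres, was at or near 0, with no library above 0.598 CPM. The part of such fibres in the Sln and Pln results was not tested.

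Sln and Pln are also expressed in heart. Of 8 heart genes 6 were in the table, and they summed to 5.49 to 10.9 CPM over all samples with overlapping groups, while Nppa was at most 0.264 CPM and Nppb was 0 in every sedentary and knockout trained sample. The 5 satellite cell genes summed to 64.4 to 76.0 CPM in vehicle sedentary and 104 to 123 CPM in knockout sedentary libraries. In trained muscle they summed to 60.2 to 369 CPM in vehicle and 85.9 to 100 CPM in knockout samples, 369 CPM being library 2. Most of this was Sdc4, at 44.8 ± 3.70 and 86.2 ± 6.20 CPM in sedentary muscle, while the defining gene Pax7 was at 5.36 ± 1.67 and 5.47 ± 0.895 CPM (SD, n = 5 each). Their part in the results was not tested. The summed levels of adipocyte (170 to 1058 CPM), macrophage (47.3 to 330 CPM), endothelial (137 to 226 CPM), Schwann cell (15.9 to 92.8 CPM) and blood genes (348 to 2893 CPM) overlapped between genotype labels in sedentary and in trained muscle.

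**Figure D5:**
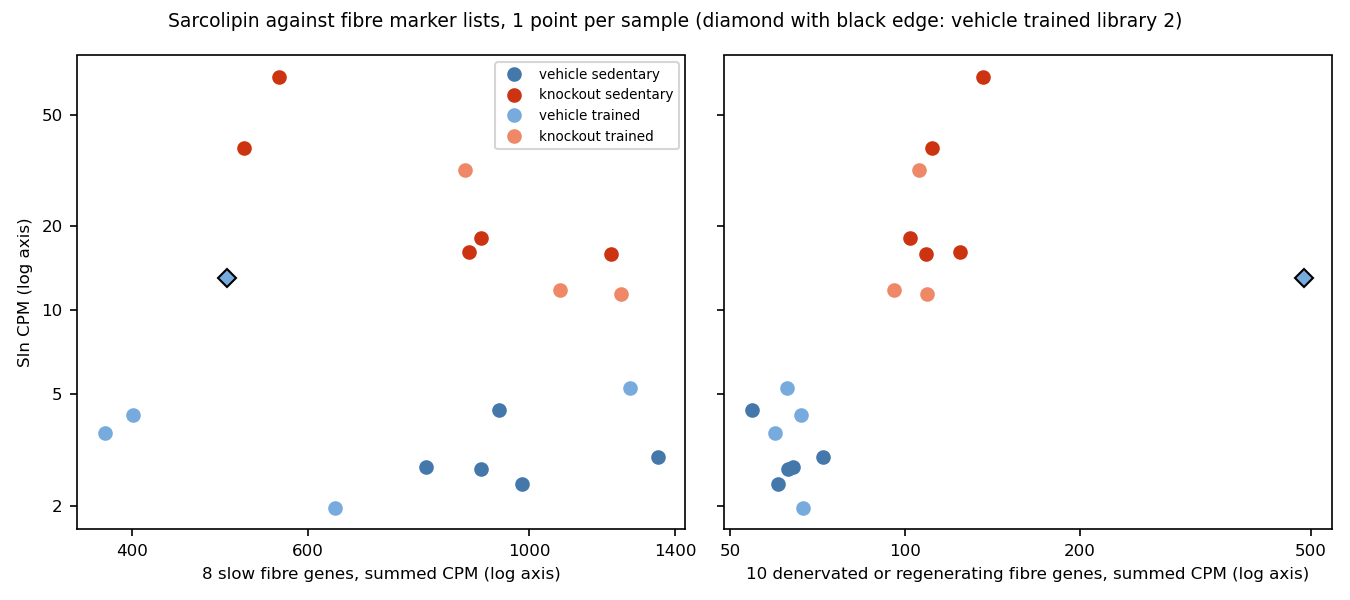
Sln CPM against the summed CPM of 8 slow fibre genes (left) and of 10 genes of denervated or regenerating fibres (right), log axes, 1 point per sample. Slow sums overlap between the sedentary groups, and between the trained groups only through vehicle trained library 1 at 1262 CPM. On the right, samples labelled knockout lie at or above 95.5 CPM and vehicle samples at or below 72.0 CPM, except vehicle trained library 2 at 487 CPM (diamond).

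The genes whose profile was most like that of Sln were named by Pearson's r of log2(CPM + 1) over all tested genes. Over the 18 samples these were Clock (r = 0.946), Krt18 (0.930), Cfap36 (0.914), Tead4 (0.907) and Leo1 (0.897). Over the 17 samples without vehicle trained library 2 they were Sox4 (r = 0.970), Clock (0.946), Arrb1 (0.939), Gpc4 (0.937) and Ptpa (0.936), with Clock alone shared between the lists. These are descriptions, since all values of a sample share its library and its depth, and the groups set much of the likeness.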

How the data were processed

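RNA was sequenced from 20 mouse hindlimb muscle libraries. The values deposited by the authors are estimated counts per gene, although they are named otherwise: the columns sum to different totals and 72.6% of the values are whole. Partek, STAR 2.7.8a and DESeq2, and the builds mm10 and GRCm39, are named per the submitters' processing notes, without role or order. Extraction with Trizol and a silica column is given per the labels' protocols. Strandedness is not given in the sources used here.

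Counts were rounded. CPM is counts over library total. Over 190 library pairs, the noise at high counts was divided by that at low counts. For 2 pairs this ratio was under 1.5 (at most 1.25, next 2.31), and each pair was summed. Genes with at least 1 CPM in at least 5 libraries were tested with edgeR 4.0.16 (R 4.3.3): quasi-likelihood test, TMM, 4 group means over 18 samples, two-sided, Benjamini-Hochberg adjustment over 14359 genes, threshold 0.05. The script was tested on simulated counts. DESeq2 1.42.0 was an alternative, as were other scalings, no filter, 20 separate libraries, a replicate block, only the groups compared, and leaving out each sample. DESeq2, separate libraries and the groups compared were combined with leaving out vehicle trained library 2 after the data were seen. Intervals are 95%. Groups, and directions, follow the labels.

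The 9 genes, the lists (other calcium handling genes, 10 marker lists) and the tests were chosen with earlier results of these data known. Sedentary genotype differences, and the interaction, were not tested. Genes named were the 9 members, Arntl, the called list genes with the largest changes (up to 6 a comparison, with or without vehicle trained library 2), Atp2a2, Casq2, Cacna1s, Ryr3 and Pvalb, and the 5 most like Sln. Cacnb1, Chrna1, Mylpf, Myh2, Gadd45a, Mymk, Sdc4, Myog, Runx1, Ncam1, Myh3 and Myh8 were named after their values were seen. Gene lengths and overlaps are from GENCODE M21. The values of 1 other list gene are not reported here.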

Additional observations from a re-analysis of the deposited data

Results flagged for a closer look

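In groups of 5 samples, a value was singled out where its gap to the nearest other value exceeded 0.71 of the group's range. Among 27 groups (9 genes in 3 groups) 3 were singled out, where chance gives about 1.35, and all 3 were vehicle trained library 2. Casq1 was at 114.68 CPM there and at 1365 to 1746 CPM in the other 4 libraries. Jph2 was at 82.2 CPM there and at 460 to 561 CPM in the others. Stac3 was at 60.2 CPM there and at 188 to 218 CPM in the others. The same library had 3744 genes over 2-fold from the rest of its group, and the reason was not tested.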

How the results depend on the processing

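In the tested comparisons, of 756 values of the 9 genes under an alternative, 728 kept their direction and side of the threshold, 17 changed sign, 9 gained and 2 lost a call. In the untested sedentary comparison 13 of 252 values changed sign, 11 for Jph1 (range -0.044 to 0.055) and 2 for Casq1 (-0.0085 to 0.099). For the knockout comparison in trained muscle, the members called (main 1) were 2 with DESeq2, with 20 separate libraries and with the replicate block, 0 with only the 2 groups compared, and 0 to 2 on leaving out 1 sample. Without vehicle trained library 2 as well they were 3, 3 and 2 for DESeq2, separate libraries and 2 groups. The other calcium handling genes called (main 6) were 14, 17, 13 (block) and 0 in the same order, 17 and 20 with DESeq2 and separate libraries without library 2, and 3 to 16 on leaving out 1 sample. Over all genes tested, the calls (main 473) were 907, 1225, 980 and 20 in that order. Without library 2 as well they were 1616, 2048 and 378 for DESeq2, separate libraries and 2 groups. On leaving out 1 sample they were 177 to 1244. For training in knockout muscle the other calcium handling genes called (main 0) were 2 with DESeq2. Without library 2 they were 4 with DESeq2 and 2 with separate libraries, and on leaving out 1 sample 0 to 5. Over all genes the calls were 198, 715, 513 and 0 to 397 in the same order. Members called stayed at 0. For training in vehicle muscle the counts of members and of other calcium handling genes were 0 under every alternative run, where at most 22 of all genes were called. In sedentary muscle 2 to 4 members did not overlap on leaving out 1 library. The cause of each change was not tested.

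For the knockout in trained muscle, Atp2a1 became 0.0037 (separate libraries) and 0.0055 (block), and Jph2 became -0.12, -0.14 and -0.13 without vehicle trained library 2 (DESeq2, separate libraries, 2 groups). For training in knockout muscle, Stac3 was 0.00018 with separate libraries and Casq1 -0.10 with library totals. On leaving out 1 sample, the knockout effect in trained muscle ranged from -0.0665 to 0.0367 for Atp2a1 (highest without knockout trained library 2), from -0.0839 (without libraries 1 and 4) to 0.256 for Ryr1, and from -0.127 (without vehicle trained library 2) to 0.236 for Jph2. The training effect in knockout muscle ranged from -0.112 to 0.000165 for Atp2a1, from -0.641 to 0.0964 for Pln and from -0.334 to 0.0079 for Ryr1, all highest without knockout trained library 2. It ranged from -0.0683 (without knockout trained libraries 3 and 5) to 0.112 for Casq1 and from -0.0812 to 0.0443 for Stac3 (highest without knockout sedentary library 5).

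Replicate numbers were not used as pairs in the main fit. Same-numbered libraries correlated at -0.395 to 0.347 in their deviations, with 11 of 30 pairs above 0.1. Libraries of different number correlated at -0.452 to 0.433. Of the 20 libraries, 4 correlated best with their own number. Such correlations cannot exclude a pairing in the design, which was not tested. The lowest library held 31 estimated counts of Sln, and the lowest for Pln held 11.2.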
